A study of Mus musculus with 6 samples.

Results

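The 10 genes described here mark or specify the neurons of cortical layer 5 that send axons out of the cortex: Colgalt2, Fezf2, Bcl11b, Ldb2, Crym, Pcp4, Bcl6, Tcerg1l, Npr3 and Crim1. They were followed through every probe set that the array annotation assigns to exactly 1 of these symbols. They are 10 of 18193 genes named on the array and have 20 of its 45037 probe sets, control probe sets aside. Of the 20, 16 reached a group mean intensity of 50 and entered the tests. All 10 genes, markers of the labelled cell type, are among them with at least 1 probe set. The study used 6 Affymetrix mouse arrays of ribosome-bound cortical RNA, 3 titled as fluoxetine and 3 as vehicle, numbered 1 to 3 in each group. All 6 came from Glt25d2 bacTRAP mice of line DU9, backcrossed for 3 to 5 generations from FVB onto C57BL/6. Their transgene puts a tag on ribosomes under the regulatory region of Glt25d2, the older name of Colgalt2, so 1 of the 10 genes also supplied the driver that selected the cells. Fluoxetine, a serotonin reuptake inhibitor, was given at 0.167 mg/ml in a drink of 1% saccharine, the vehicle was that drink alone, and both lasted 15 to 18 days. The labels give neither the age of the mice nor how many were pooled for an array, so p-values measure the spread between these purifications only. Every array is of purified RNA from a transgenic line, and no array of unpurified cortex was used, so enrichment of the genes was not measured.

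Layer 5 holds the corticofugal pyramidal neurons whose axons reach the spinal cord, brainstem and other targets below the cortex. Their identity is set by a transcriptional cascade in which Fezf2 acts near the top and Bcl11b, also called Ctip2, acts downstream to drive axon outgrowth, while Tbr1 favours the corticothalamic fate. In the adult these genes serve as labels of the cell class.

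RefSeq start sites of assembly GRCm38.p6 were found for 7 of the 10 genes, in 8 windows, and Colgalt2, Ldb2 and Crym had no entry. The 250 bases before the start are printed for 3 genes, picked as examples of patterns seen on the arrays. Fezf2 and Bcl6 were lowest on both arrays numbered 1, and Pcp4 was highest on those arrays. Capitals mark matches on either strand to any of 5 motifs. The letters searched were TATAAA for the TATA box and GGGCGG for the GC box. They were CACGTG for the E-box and CCAAT for the box of that name, and the cAMP response element was searched as TGACGTCA. The Fezf2 window lies at chr14:12345866-12346115 on the minus strand, the Bcl6 window at chr16:23988853-23989102 on the minus strand, and the Pcp4 window at chr16:96467356-96467605 on the plus strand, and each is written 5′ to 3′ on the strand of its gene.
Fezf2: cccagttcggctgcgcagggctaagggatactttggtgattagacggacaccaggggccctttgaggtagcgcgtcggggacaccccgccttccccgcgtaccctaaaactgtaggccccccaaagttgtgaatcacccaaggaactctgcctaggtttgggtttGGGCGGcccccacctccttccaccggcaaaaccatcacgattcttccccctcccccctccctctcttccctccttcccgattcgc
Bcl6: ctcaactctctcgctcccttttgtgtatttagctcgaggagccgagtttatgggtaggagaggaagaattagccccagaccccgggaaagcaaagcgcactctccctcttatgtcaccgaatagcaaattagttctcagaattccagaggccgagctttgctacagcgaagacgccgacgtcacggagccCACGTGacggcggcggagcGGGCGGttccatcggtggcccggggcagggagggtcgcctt
Pcp4: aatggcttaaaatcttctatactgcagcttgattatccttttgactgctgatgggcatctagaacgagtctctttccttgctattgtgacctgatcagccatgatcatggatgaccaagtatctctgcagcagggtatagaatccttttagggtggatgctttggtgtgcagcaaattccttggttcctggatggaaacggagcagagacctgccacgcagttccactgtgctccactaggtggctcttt
The Fezf2 window held 1 GC box and the Bcl6 window 1 GC box and 1 E-box, while no letters of the 5 motifs were found in the Pcp4 window. Among 32851 RefSeq windows of the same length, 32.7% held a GC box, 6.02% an E-box, 33.8% a CCAAT box, 12.4% a TATA box and 1.55% a cAMP response element. CpG dinucleotides numbered 14 in the Fezf2 window, 21 in this Bcl6 window and 3 in the Pcp4 window, against a median of 6 over all windows. Of the other members, Crim1 had 25, Tcerg1l 23, a second Bcl6 window 13, Bcl11b 9 and Npr3 6. Of the motifs, Tcerg1l held 2 GC boxes and 1 CCAAT box, Crim1 1 of each and Npr3 1 CCAAT box. Bcl11b and the second Bcl6 window held none. Tcerg1l and Npr3 were, like Pcp4, highest on the arrays numbered 1, and a link of motifs with the arrays was not tested. A match of letters is a description of the sequence and no evidence of binding.

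The direction of each treatment difference follows the titles. The title, source and treatment fields of a sample agree, but its short description names the other treatment, and reading that field would turn every sign and leave every p-value as it is. Median intensities of the arrays lay between 23.0 and 23.4, and 41.4% to 41.8% of probe sets reached an intensity of 50. Intensities were made with GCRMA, and levels of different probe sets share no scale, so values are compared between arrays and not between genes.

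No member passed the test between the treatments, and each of the 10 genes had a difference between -0.18 and 0.079 on the log2 scale. The question was whether chronic fluoxetine shifts the identity programme of the cells that carry the Glt25d2 transgene. In limma, 0 of the 16 member probe sets passed an adjusted p of 0.05, and over all 19073 probe sets the share was 0% as well. At an unadjusted p under 0.05 the count was 0 of 10 genes, against 0.591% of 10830 genes. With the replicate number as a block, which the arrays warrant because equal numbers deviate together, 0% of all probe sets passed again. That fit gave 0 of 10 genes at an unadjusted p under 0.05, where 147 of 10830 genes were lower and 222 higher. Its median SE over all genes was 0.11, against 0.17 without the block. Intervals and SEs are those without the block unless stated. The groups overlapped for all 10 genes, where they did not overlap for 3.61% of all genes. A negative difference was found for 7 of the 10, against 52.2% of all genes, and the median log2 difference was -0.081, against -0.0068. All 10 intervals lay within 2-fold in either direction, as did 96.0% of intervals over all genes.

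**Figure D1:**
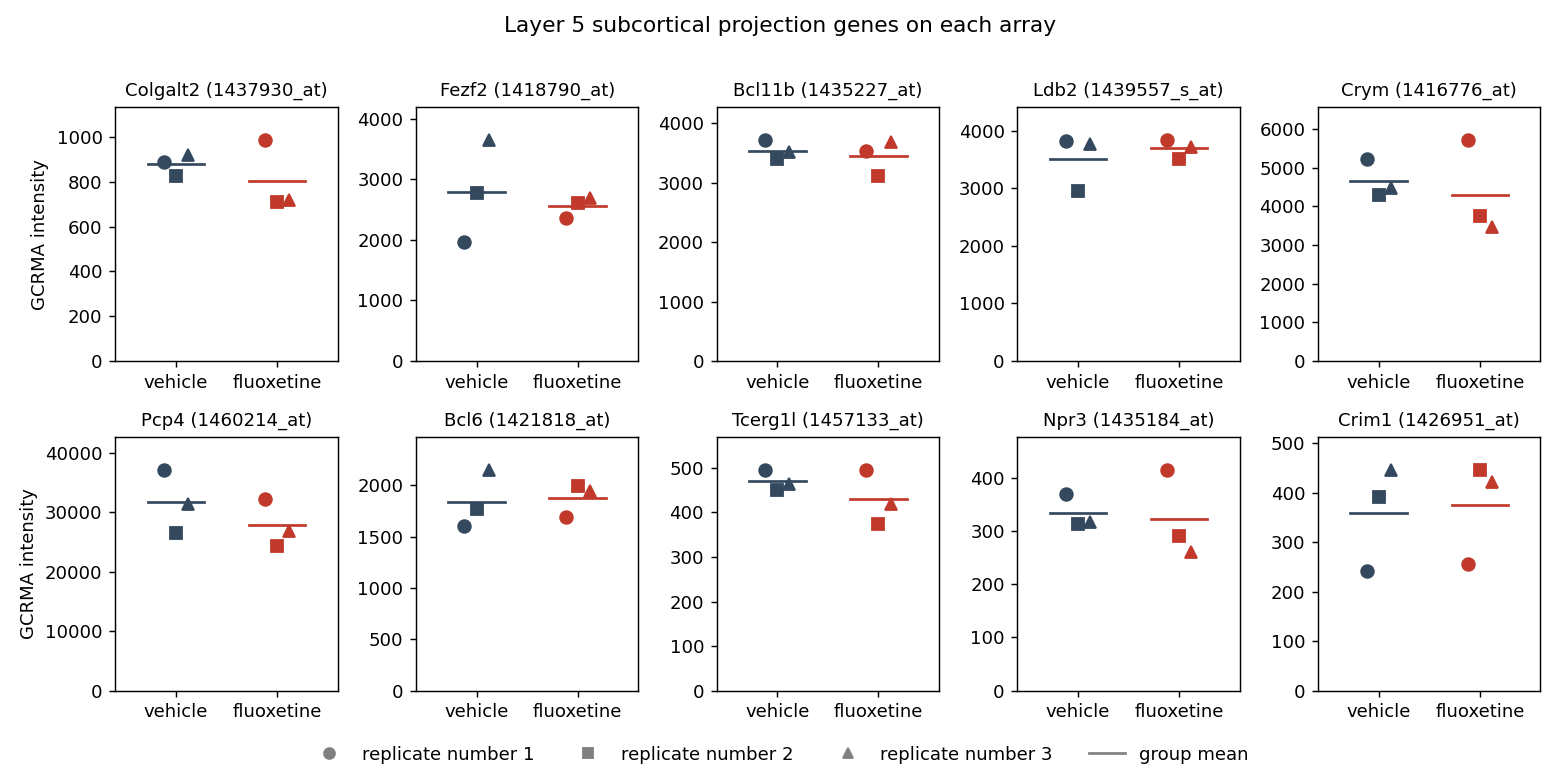
GCRMA intensity (vertical axis, linear from 0) of the probe set of highest mean for each of the 10 genes, with vehicle-titled arrays at left and fluoxetine-titled arrays at right in every panel. Symbols are single arrays by replicate number and lines are group means of 3 arrays; the groups overlap in every panel, and for Crym, Npr3 and Crim1 both circles (number 1) stand apart from the other arrays.

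The transcription factors come first. Fezf2, the zinc finger factor at the head of the cascade, had intensities of 2353, 2600.3 and 2697 on fluoxetine arrays 1, 2 and 3, and of 1961, 2769.8 and 3644 on the vehicle arrays. Vehicle array 3 was the highest and vehicle array 1 the lowest, so all 3 fluoxetine values fell inside the vehicle range. The log2 difference was -0.088 ± 0.23 (SE, n = 3 per group; 95% interval -0.62 to 0.45; limma unadjusted p = 0.712). By pair of equal number it was 0.26, -0.091 and -0.43, and without vehicle array 3 it turned to 0.13.

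Bcl11b has 4 probe sets, all kept. The one of highest mean, 1435227_at, had 3539, 3115 and 3681 on the fluoxetine and 3718, 3399 and 3513 on the vehicle arrays. No array stood out, and the log2 difference was -0.043 ± 0.13 (interval -0.35 to 0.26). The other three had differences of -0.10 ± 0.40 (1450339_a_at), 0.16 ± 0.20 (1452966_at) and -0.17 ± 0.17 (1438784_at). For 1450339_a_at the interval ran from -1.05 to 0.84, the only one of the 16 that reached beyond 2-fold, and with the replicate block it narrowed to -0.36 to 0.15.

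Bcl6, a BTB zinc finger repressor of transcription, had 1691, 1993 and 1948 on the fluoxetine and 1609, 1766 and 2153 on the vehicle arrays. The arrays numbered 1 were the lowest of each group and vehicle array 3 was the highest of all. Its log2 difference was 0.034 ± 0.16 (interval -0.34 to 0.40). A second Bcl6 probe set stayed between 21.2 and 24.7 on every array and did not enter the tests.

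Ldb2, a cofactor that binds LIM-domain transcription factors, has 3 probe sets, and they did not place the treatments in the same order. The brightest, 1439557_s_at, had 3833, 3514 and 3722 on the fluoxetine and 3823, 2958 and 3761 on the vehicle arrays, with vehicle array 2 alone low. Its log2 difference was 0.079 ± 0.15. The suffix _s_at marks probes that may match transcripts of more than 1 gene. For 1421101_a_at the values were 1392, 1483 and 1651 against 1624, 2025 and 1968. The fluoxetine-titled array had the lower value in each pair (-0.22, -0.45 and -0.25), and the groups overlapped only because fluoxetine array 3 exceeded vehicle array 1. Between treatments the log2 difference was -0.31 ± 0.15 (interval -0.65 to 0.036; unadjusted p = 0.0719). With the replicate block it was -0.31 ± 0.11 (unadjusted p = 0.0239, adjusted p = 0.993 in limma). This was the single member probe set of 16 with an unadjusted p under 0.05 in the blocked fit, in either direction. Of all 19073 probe sets, 767 were under it in either direction and 1.79% with a lower value. The third probe set, 1456786_at, had 968, 889 and 769 against 978, 541 and 848, a difference of 0.19 ± 0.23 that came from the low vehicle array 2. In pair 2 it was 0.72, and in pairs 1 and 3 it was -0.014 and -0.14.

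Tcerg1l had 495, 373 and 419.7 on the fluoxetine and 496, 451 and 464 on the vehicle arrays. Fluoxetine array 2 was the lowest and both arrays numbered 1 the highest. Its mean log2 difference was -0.14 ± 0.15 (interval -0.49 to 0.21; unadjusted p = 0.371). It was negative in all 3 pairs, but only -0.0042 in pair 1. Its second probe set stayed between 32.1 and 46.3.

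The other members act in the cytoplasm, at the membrane or in the secretory pathway. Colgalt2 adds galactose to hydroxylysine in collagen. Its probe set had 986, 709 and 719 on the fluoxetine and 891, 828 and 918 on the vehicle arrays. Fluoxetine array 1 was the highest of the 6 and fluoxetine arrays 2 and 3 were the lowest, so the treated values lay on both sides of the controls. This gave a log2 difference of -0.14 ± 0.17 (interval -0.53 to 0.25; unadjusted p = 0.415), with 0.15, -0.22 and -0.35 by pair.

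Crym encodes mu-crystallin, which binds thyroid hormone in the cytosol. It had 5714, 3749.7 and 3459.6 on the fluoxetine and 5225, 4286 and 4488 on the vehicle arrays. Both arrays numbered 1 exceeded the other 4. The log2 difference came to -0.15 ± 0.21 (interval -0.65 to 0.35), with 0.13, -0.19 and -0.37 by pair. It was -0.37 without fluoxetine array 1 and -0.0064 without fluoxetine array 3.

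Npr3 is the clearance receptor of natriuretic peptides. Its brightest probe set had 415, 289.9 and 261 on the fluoxetine and 369, 313 and 317 on the vehicle arrays. The log2 difference was -0.075 ± 0.20 (interval -0.54 to 0.39), with 0.17, -0.11 and -0.28 by pair. Without fluoxetine array 3 it turned to 0.062. The other Npr3 probe sets stayed below 50, 1 of them between 8.06 and 11.8 and the other between 10.2 and 36.8.

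Pcp4 is a small protein that binds calmodulin and alters its exchange of calcium. It had 32186, 24332 and 26849 on the fluoxetine and 37135, 26444 and 31351 on the vehicle arrays. Each vehicle array exceeded the fluoxetine array of the same number, and the arrays numbered 1 were the highest of each group. Between treatments the log2 difference was -0.18 ± 0.18 (interval -0.60 to 0.24; unadjusted p = 0.337), with -0.21, -0.12 and -0.22 by pair. It was the gene of the 10 with the lowest difference, and with the replicate block the unadjusted p was 0.111. Pcp4 and Tcerg1l were the 2 of 10 genes that were lower in all 3 pairs, as were 13.1% of all genes, and 0 of 10 were higher in all 3, against 10.9%.

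Crim1 is a membrane protein with cysteine-rich repeats that binds bone morphogenetic proteins. The probe set 1426951_at had 256, 446 and 421 on the fluoxetine and 241, 391 and 446 on the vehicle arrays. Pairs differed by 0.085, 0.19 and -0.081, and both arrays numbered 1 were far below the rest. Its mean log2 difference was 0.065 ± 0.30 (interval -0.64 to 0.77), and with the block its SE fell to 0.11. The second probe set, 1452253_at, lay between 127 and 163 on every array, with a difference of -0.025 ± 0.14.

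**Figure D2:**
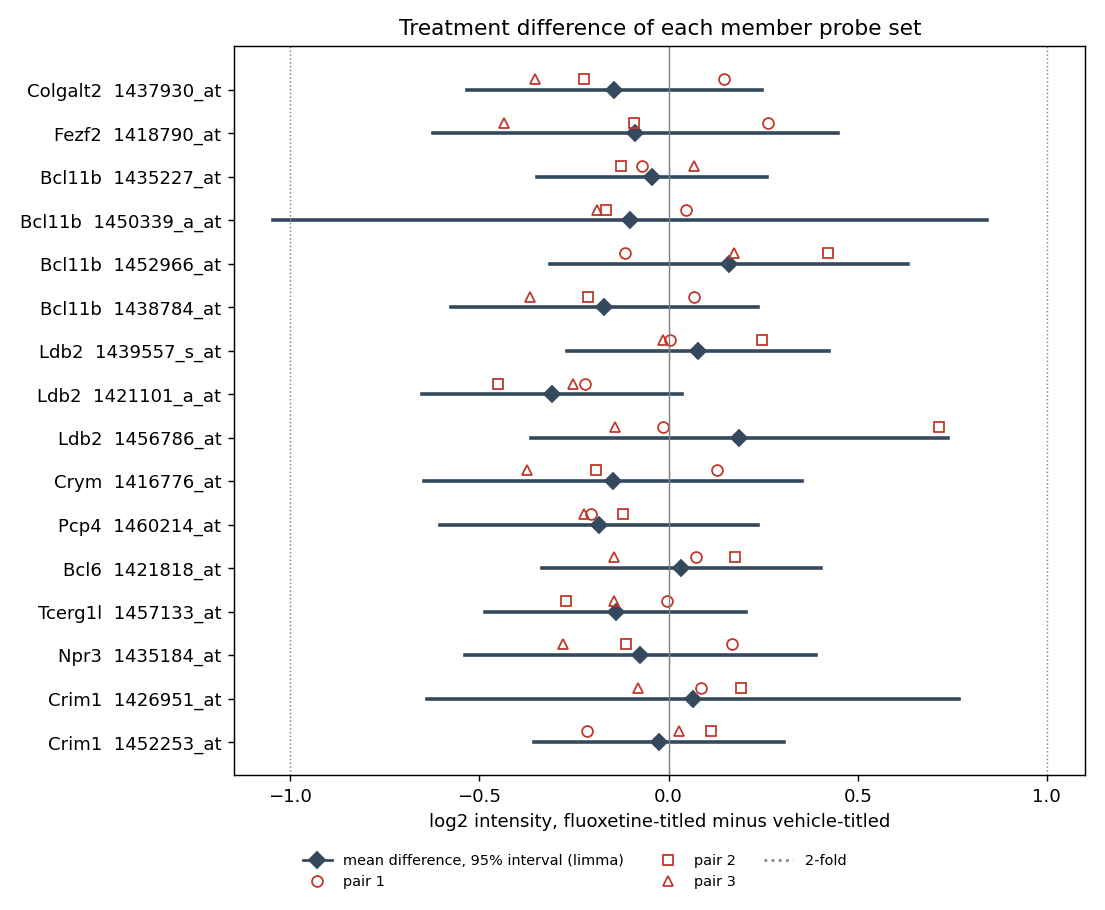
Log2 difference between fluoxetine-titled and vehicle-titled arrays (horizontal axis) for the 16 member probe sets that entered the tests, with diamonds for the mean difference and bars for its 95% interval in limma (3 arrays per group). Open symbols are the differences within pairs of equal replicate number and dotted lines mark 2-fold; every bar crosses 0, and that of 1450339_a_at alone passes a dotted line.

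For members, replicate number gave calls where treatment gave none. The titles number the arrays 1 to 3 in each group, and the meaning of a number is not given. A test of the number in limma, with treatment in the model, called 2 of 16 member probe sets at an adjusted p of 0.05, a share near the 14.8% of all probe sets that passed. The 2 were Bcl11b 1450339_a_at (adjusted p = 0.00825) and Crim1 1426951_at (adjusted p = 0.0198). For the Bcl11b probe set, arrays numbered 1 had 1691 and 1638, arrays numbered 2 had 2955 and 3315, and arrays numbered 3 had 3598 and 4099. Numbers 2 and 3 together were 2.08-fold above number 1. The Crim1 probe set was 1.71-fold higher on numbers 2 and 3 than on number 1. The Bcl11b call held with each array left out in turn (adjusted p from 0.00673 to 0.0352). Leaving out fluoxetine array 1 or vehicle array 1 ended the Crim1 call (adjusted p = 0.0817 and 0.0772). Both calls were lost with no intensity filter (0.0903 and 0.0974).

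Probe sets of the same gene did not follow the number alike. For Bcl11b, the intensity of 1450339_a_at over that of 1435227_at was 0.478 and 0.440 on the arrays numbered 1, and between 0.949 and 1.17 on the other 4. The probe set 1435227_at itself was 1.06-fold higher on number 1 than on numbers 2 and 3 (adjusted p = 0.552). The probe set 1438784_at was lowest on both arrays numbered 1, with 202 and 192 against 216 to 278, and 1452966_at was not. For Crim1, 1452253_at over 1426951_at was 0.496 and 0.611 on number 1 and between 0.311 and 0.386 elsewhere. Suffix _a_at denotes probes shared by transcripts of 1 gene. The position of the probes along the transcripts was not used here, and the difference between probe sets of a gene was not tested.

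**Figure D3:**
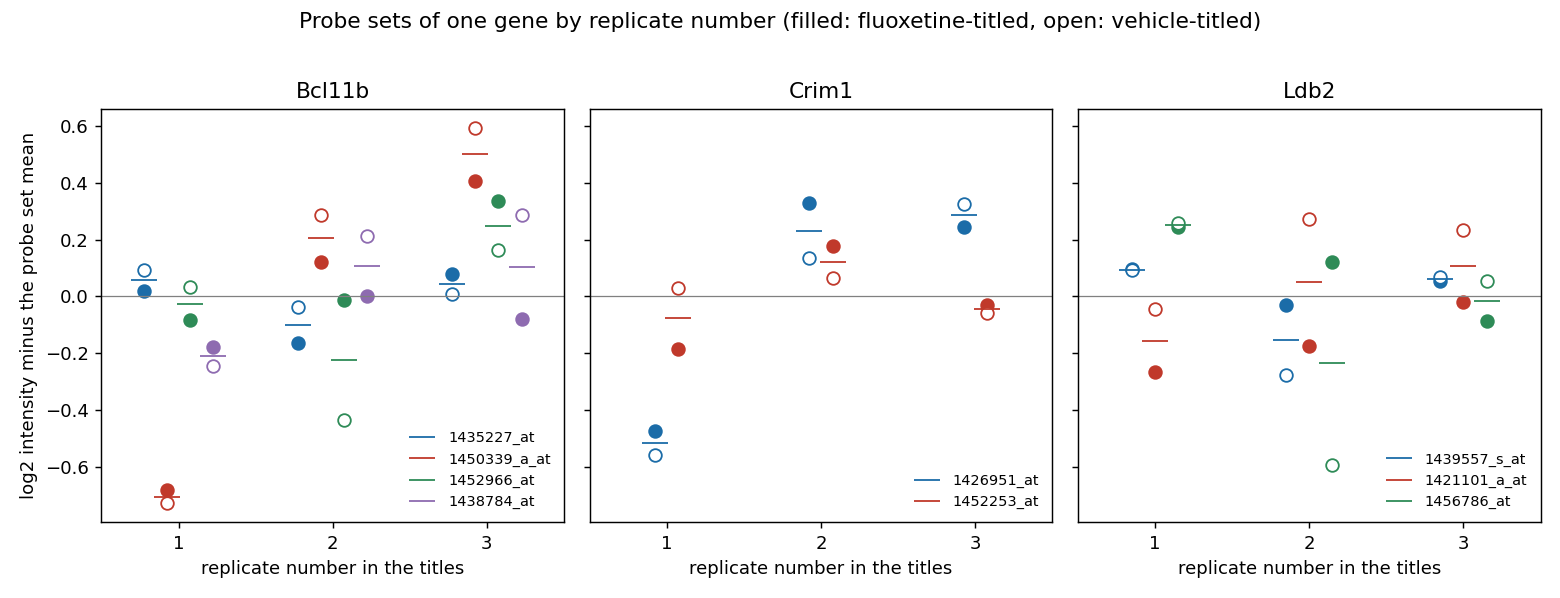
Log2 intensity minus the mean of each probe set (vertical axis) against the replicate number in the titles (horizontal axis), for the kept probe sets of Bcl11b, Crim1 and Ldb2. Filled circles are fluoxetine-titled and open circles vehicle-titled arrays, and dashes are the mean of both; 1450339_a_at of Bcl11b and 1426951_at of Crim1 lie lowest at number 1, and the other probe sets of these genes vary less.

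Across the 10 genes, levels on the arrays numbered 1 differed from the rest in both directions. At the brightest probe set, both arrays numbered 1 lay above the other 4 for Ldb2, Crym, Pcp4, Tcerg1l and Npr3, and below them for Fezf2, Bcl6 and Crim1. That is 5 and 3 of 10, where 24.4% and 19.9% of all genes were so placed. For Ldb2 the margin was small, 3823 against 3761. Of the further tested probe sets of these genes, Ldb2 1456786_at also lay above, but Ldb2 1421101_a_at and Crim1 1452253_at lay on neither side. Npr3 1448024_at, which stayed below 50, lay below. On the log2 scale, number 1 minus the mean of numbers 2 and 3 was 0.46 for Crym, 0.41 for Npr3, 0.35 for Pcp4, -0.43 for Fezf2 and -0.25 for Bcl6. None of these 5 passed the test of the number (adjusted p from 0.0946 to 0.262). For Colgalt2 number 1 minus the mean of numbers 2 and 3 was 0.25 (adjusted p = 0.364). With a trended and robust variance prior, Crym and Pcp4 passed (adjusted p = 0.0299 and 0.00265). Under that prior 4 of 16 member probe sets passed, where 4753 of all 19073 did. With log2(intensity + 50) Pcp4 passed (0.0434), and 3 of 16 member probe sets did, where 4304 of 19073 did. Both shares of the members are near those of all probe sets.

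Among the members, Crym was most like Colgalt2 over the 6 arrays, followed by Tcerg1l, Npr3 and Pcp4. As a measure of likeness, the Pearson correlation of log2 intensity with Colgalt2 was 0.93, 0.90, 0.88 and 0.78 for these 4. It was -0.065 for Fezf2, -0.39 for Bcl6 and -0.64 for Crim1. Arrays of equal number share their deviations, so 6 arrays are fewer than 6 independent points, and no test was made. The 5 genes of 10829 most like Colgalt2 were Rwdd2a, Eif2b1, Ttc1, Chmp2a and Mlx, all with a correlation of 0.99. Crym ranked at 115 and Tcerg1l at 201 among them. The 5 most like the mean of the members were Alkbh6, Atp6v1g2, Anxa1, Cdk2ap2 and Bmerb1, with correlations from 0.98 to 0.99.

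Markers of other cell types were present on every array. The summed intensity of those of glia, interneurons and other cortical projection layers was lowest on vehicle array 3. The sums are weighted towards the brightest probe sets, which were Aldoc among astrocyte, Cnp among oligodendrocyte and Gad1 and Cck among interneuron markers. Of single genes, 9 of 10 astrocyte, 7 of 9 oligodendrocyte, 4 of 6 microglial and 7 of 12 interneuron markers were lowest on vehicle array 3. The oligodendrocyte lineage gene Cspg4 and the microglial gene Aif1 were highest there. The share of all genes lowest on that array was not counted, so these counts have no background beside them. Of the markers listed, 12 of 12 for interneurons, 10 of 10 for astrocytes, 9 of 10 for oligodendrocytes, 6 of 10 for microglia and 5 of 10 for vessels reached an intensity of 50, with no kept marker under 44.4 on any array. The microglial genes P2ry12, Tmem119, Itgam and Trem2 and the endothelial genes Pecam1, Flt1, Tek, Kdr and Vwf stayed under that mean in both groups. Summed intensity of the astrocyte list lay between 23573 and 28253 on the fluoxetine arrays and between 15673 and 28254 on the vehicle arrays, and that of the oligodendrocyte list between 27512 and 34200.5 and between 20400 and 37382. Interneuron sums lay between 35611 and 40387 and between 32012 and 41149, microglia sums between 1999 and 2797 and between 1218 and 3137, and vessel sums between 1736 and 1995 and between 1230 and 1605. Vehicle array 3 was the lowest of the 6 in the first 4 of these lists. It was also the lowest for callosal and upper-layer markers (13806) and for layer 6 markers (5558). Of single genes in these lists, only 3 of 10 callosal and upper-layer and 3 of 7 layer 6 markers were lowest on it. Of the 10 members, 2 were highest on it, Fezf2 and Bcl6. In pair 3 the median log2 difference was -0.18 for the members, 0.83 for astrocyte, 0.55 for oligodendrocyte, 0.78 for microglia and 0.44 for interneuron markers. In pair 1 the members had 0.079 and these lists between -0.25 and -0.036. In pair 2 the members had -0.12 and these lists between -0.13 and -0.019. Over all pairs the median was 0.26 for astrocyte (10 of 10 positive), 0.15 for oligodendrocyte, 0.16 for microglia, 0.099 for interneuron and 0.40 for vessel markers (5 of 5 positive). The smooth muscle actin gene Acta2 was the 1 marker of these lists with an unadjusted p under 0.05 (0.68 ± 0.19, unadjusted p = 0.00843, adjusted p = 1 in limma). With the replicate block in limma 4 markers of these lists were under it, all with an adjusted p of 0.993. Acta2 (0.00106), Pdgfrb (0.00748) and Abcb1a (0.0277) had higher and the interneuron gene Pvalb (0.0242) lower values. Of the layer 6 markers, Tbr1 (0.0289) was under it as well, with higher values. Among all 10830 genes, 147 were under it with lower and 222 with higher values. Markers of callosal and upper-layer neurons, 10 of 11 kept, had a median of -0.083 and summed intensities between 15563 and 16742 on the fluoxetine and between 13806 and 19334 on the vehicle arrays. The part of other cells in the members' values was not tested, and in purified RNA fewer cells of a type and less RNA per cell cannot be told apart.

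**Figure D4:**
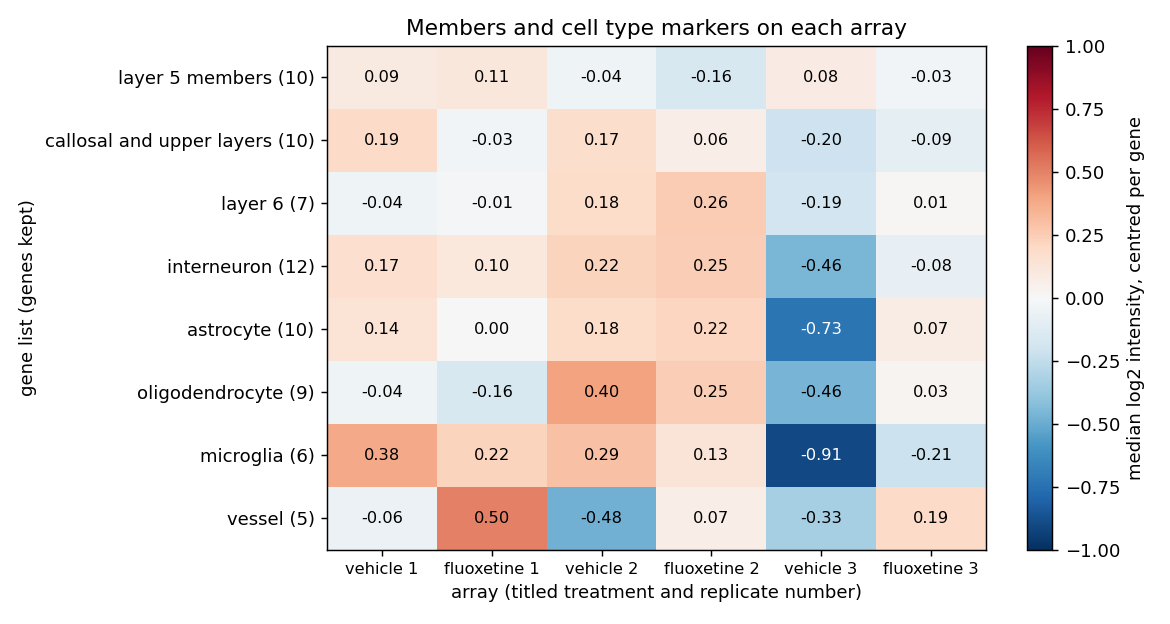
Median over each gene list of log2 intensity centred on the mean of each gene (colour and printed value), for the members and 7 lists of cell type markers in rows and the 6 arrays in columns, with the number of genes kept in brackets. The member row stays between -0.16 and 0.11, while vehicle array 3 is at -0.46 for interneuron, -0.73 for astrocyte, -0.46 for oligodendrocyte and -0.91 for microglia markers. For callosal and upper-layer markers it is at -0.20, and for layer 6 markers at -0.19.

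Among other genes of layer 5 neurons, no difference between the treatments passed the test. Of 30 genes listed, 28 had a probe set and 26 were kept, with 14 negative and 12 positive differences and a median of -0.011 on the log2 scale. None passed an adjusted p of 0.05 or an unadjusted p under 0.05. The lowest differences were those of Tmem200a (-0.44 ± 0.20, unadjusted p = 0.0598), the heparan sulfatase gene Sulf2 (-0.18 ± 0.14) and the adaptor gene Grb14 (-0.15 ± 0.12), each lower in all 3 pairs. Tmem200a had 316, 214 and 226 on the fluoxetine and 404, 303 and 315 on the vehicle arrays, and its fluoxetine array 1 alone reached the vehicle range. With the replicate block its unadjusted p was 0.00368 (adjusted p = 0.993). The highest were those of Gprin3 (0.65 ± 1.1), the potassium channel gene Kcnn2 (0.25 ± 0.25) and Rprm (0.19 ± 0.15). Gprin3 had 89.7, 299 and 344 against 20.8, 315 and 363, so its difference arose on the arrays numbered 1, where both values were low. By replicate number 3 of the 26 passed, a share near that of all genes (1396 of 10830). They were Gprin3 (adjusted p = 0.0206), Kcnn2 (0.0369) and the retinol-binding protein gene Rbp4 (0.0149). Gprin3 and Kcnn2 were low on number 1, and Rbp4 was high there, with 362 and 353 against 183 to 219.

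Among genes listed as the Fezf2 network, some of them receptor or transporter genes, no difference between the treatments passed the test. Of 26 listed, 23 had a probe set and 19 were kept, 15 with a positive and 4 with a negative difference, where 5177 of 10830 genes were positive. The median was 0.11, against -0.0068 over all genes. The fluoxetine-titled array was higher in all 3 pairs for 9 of 19, against 10.9% of all genes, and 0 of 19 had an unadjusted p under 0.05. Tbr1, the factor of corticothalamic neurons, had 1702, 3007 and 2920.0 on the fluoxetine and 1636, 1889 and 2167 on the vehicle arrays, a log2 difference of 0.39 ± 0.25 (unadjusted p = 0.159). With the replicate block its unadjusted p was 0.0289 (adjusted p = 0.993). Tle4 and Tle1, corepressors of the Groucho family, had 0.24 ± 0.19 and 0.22 ± 0.23. The lowest were Ski (-0.15 ± 0.29), a transcriptional corepressor, Bcl11a (-0.051 ± 0.13), the paralog of Bcl11b, and the ephrin receptor gene Ephb1 (-0.045 ± 0.23). Tbr1 and Tle4 also stand among the layer 6 markers, whose median difference was 0.24 over 7 genes, with 0.097, -0.12 and 0.39 in pairs 1, 2 and 3. By replicate number 5 of 19 passed, where 1396 of 10830 genes did, and all 5 were low on number 1: Zeb2 (adjusted p = 0.0043), Ski (0.0179), Tle3 (0.0199), the vesicular glutamate transporter gene Slc17a7 (0.0328) and Rest (0.0474). Zeb2 had 884 and 710.3 on number 1 against 2070.3 to 2432 on the others, a log2 difference of -1.53. Emx2, Pax6, Neurog2 and Fezf1, which act in progenitors, had group means under 50.

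Paralogs and binding partners of the members showed no common shift. Of 45 listed, 36 had a probe set and 27 were kept, 14 with a positive and 13 with a negative difference, and the median was 0.0023. The Bcl6 corepressor relative Bcorl1 had 56.9, 73.6 and 66.3 on the fluoxetine and 79.2, 88.3 and 82.8 on the vehicle arrays, with no overlap. Its log2 difference was -0.35 ± 0.14 (unadjusted p = 0.0423, not passed after adjustment), and it was the 1 gene of 27 with an unadjusted p under 0.05. With the replicate block Bcorl1 (0.0126) and Notch1 (0.0241) were under it, both with an adjusted p of 0.993. Bcor, its paralog, had 0.20 ± 0.15. The LIM factor gene Lmo3 had -0.22 ± 0.15 and the Ldb2 paralog Ldb1 -0.14 ± 0.25. Notch1 had the highest difference, 1.34 ± 0.77, with 1148 on fluoxetine array 1 and between 69.4 and 179 on the other 5. Col4a1, a collagen of basement membranes, had 0.41 ± 0.43 and the Pcp4 relative Pcp4l1 0.28 ± 0.38. Colgalt1, the paralog of Colgalt2, had -0.10 ± 0.16, and the thyroid hormone receptor gene Thra had -0.091 ± 0.13. Of the natriuretic system, Npr2 was kept, with -0.041 ± 0.19, while Npr1, Nppa, Nppb and Nppc stayed below 50.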

How the data were processed

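Each array holds 1 deposited intensity for every probe set, and the submitters' processing notes name GCRMA. Its version is not given in the sources used here. Per the labels' protocols, 15 ng of RNA was amplified in 2 cycles. Values are linear and were taken to log2. Control probe sets (64) were left out, and 19073 of 45037 were kept where at least 1 group mean reached 50. Symbols came from the platform annotation, and each gene was taken at its brightest probe set by mean.

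Differences were fitted over all kept probe sets in limma 3.58.1 under R 4.3.3 (lmFit, then eBayes), two-sided, with Benjamini-Hochberg adjustment, and the code was tested on simulated data. Equal replicate numbers pair the arrays: deviations from group means correlated at 0.74, 0.60 and 0.50 for numbers 1, 2 and 3. Unequal numbers 2 and 3 correlated at 0.11 and 0.26, and number 1 with the others between -0.59 and -0.41. Numbers 2 and 3 are thus told apart less clearly than number 1. The pairing comes from the titles and this check. The test of the number is a moderated F over both number terms. No 2 arrays looked like 1 library, since log2 differences had an SD of at least 0.23. The number of arrays limits precision.

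Members and lists were chosen with earlier results of these data known. The text names all members, the 3 highest and 3 lowest genes of each list, any with an unadjusted p under 0.05, partners of members, and the 5 genes nearest in pattern. Genes named only for the test of the number were chosen after their values were seen. Promoters are those of RefSeq. Alternatives were the replicate block, quantile normalization, other filters, log2(intensity + 50), a floor of 50, another variance prior and arrays left out.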

Additional observations from a re-analysis of the deposited data

How the results depend on the processing

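With the replicate block, limma gave 0 probe sets for the treatment at an adjusted p of 0.05, as did every other alternative run, with between 52 and 920 at an unadjusted p under 0.05. The median log2 difference of the 10 genes was -0.081 with the replicate block as well, which cannot change it because each number holds both treatments. Under the other alternatives it ran from -0.18 without both arrays numbered 1 to -0.0019 without both numbered 3. These values lie within 1 SD of the 3 pair medians (0.14). That is a wide measure, since it exceeds the median itself and comes from the same pairs. The replicate block changed no call of a member.

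The number of probe sets that differed by replicate number, 2827, was 0 with no intensity filter (9053 at an unadjusted p under 0.05), 4304 with log2(intensity + 50) and 4753 with a trended and robust prior. With 1 array left out it lay between 785 (without fluoxetine array 1) and 3586 (without fluoxetine array 3). The cause was not tested.

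The replicate block, the other filters and the other variance prior leave each log2 difference as it is, so they could not change its sign. Differences that changed sign did so only when arrays were left out. Over those alternatives they ranged from -0.099 to 0.028 for Bcl11b, from -0.058 to 0.15 for Bcl6, from -0.20 to 0.32 for Crim1, from -0.32 to 0.13 for Fezf2, from -0.040 to 0.14 for Ldb2 and from -0.27 to 0.062 for Npr3. They stayed negative in all of these for Colgalt2 (-0.30 to -0.038), Crym (-0.37 to -0.0064), Pcp4 (-0.31 to -0.061) and Tcerg1l (-0.25 to -0.045). The 6 arrays and the GCRMA intensities, which give no read depth, set the limit on small differences, and probe sets under an intensity of 50 have little signal over background.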
